A study of Bos taurus with 12 samples.

Results

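The comparison described here sets lysine against control within the 3 cows whose library names carry the code B2 (cows 4345, 4381 and 4408). Its members are the 6 libraries of these cows, of 12 libraries from 6 cows in the whole series, and membership follows from the code in the column names, not from a measured value, although the comparison itself was picked with earlier results of these data known. All animals were Holstein dairy cows in early lactation, and RNA was taken from the fat layer of their milk. Each B2 cow gave 1 control library and 1 library under lysine delivered past the rumen, labelled as given for 63 days. The sample titles carry the same 63 with no unit, and whether it stands there for a duration or an amount is not stated. No genotype or age is given. The labels leave the code B unexplained, and likewise a code P that differs between the libraries of a cow. In cow 4345 the control library was P3 and the lysine library P2, in cow 4381 they were P4 and P3, and in cow 4408 they were P1 and P4. The P code was thus lower with lysine in 2 cows and higher in 1.

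Lysine is an essential amino acid that the cow cannot make, and it is often among the first to limit milk protein synthesis on common dairy diets. Free lysine in feed is largely broken down by rumen microbes, so it is supplied beyond the rumen when its effect on the animal is to be tested. In the udder, amino acids serve both as building blocks of the caseins and whey proteins and as signals to the pathways that set the rate of translation. The milk fat globule is shed wrapped in membrane of the secretory cell and can trap a crescent of its cytoplasm, which is why RNA of the fat layer is used as a window on the lactating gland.

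The deposited table names genes by Ensembl cattle ID only, and 0 of the 37063 genes in the RefSeq table used here could be matched to one. The genes below are therefore called by their order of abundance or of p, with an ID for 2 in each direction, and neither the gene lists nor the cell type markers could be read. The check of the label milk against markers of secretory cells was for that reason not made. Because fewer cells of a type and less RNA per cell look alike in such samples, each difference below is one of RNA in the fat layer.

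Of the 24616 genes in the table, 8495 had no count in any B2 library and 11851 passed the filter on low counts. Control libraries held 25.1, 12.6 and 16.4 M counts in cows 4345, 4381 and 4408 (M, the metric prefix mega), and lysine libraries 37.9, 56.6 and 23.6 M. The lysine library was the deeper in all 3 cows, by 1.51, 4.48 and 1.44 times. The mean difference of 21.4 ± 19.8 M (SD, n = 3 cows) had an exact two-sided sign-flip permutation p of 0.25, which is the smallest that 3 cows can give (adjusted p = 0.75 over 3 measures). Genes with a count numbered 13838 ± 1539 in control and 13331 ± 449 in lysine libraries (SD, n = 3 each), and were more numerous with lysine in 1 of 3 cows (exact permutation p = 0.5). The 10 most abundant genes of a library took 69.6 ± 5.17% of counts in control and 70.9 ± 11.04% in lysine libraries (exact permutation p = 0.75). Lysine and depth thus moved together in the B2 cows, and their parts in the differences below cannot be told apart beyond the fits that include depth.

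The make-up of the milk fat RNA differed between control and lysine libraries in a few very abundant genes. Shares of counts are given first, and they scale each library by its own total alone. A gain in one share lowers the others, and ranks by counts also reflect transcript length, which was not used here. The second most abundant gene took 11.9%, 10.1% and 13.7% of counts in the control libraries of cows 4345, 4381 and 4408, and 20.3%, 26.7% and 25.8% in their lysine libraries. Every lysine library stood above every control library, and the mean share went from 11.9 ± 1.78% to 24.3 ± 3.48% (SD, n = 3 each). The eighth most abundant gene took 0.43%, 0.55% and 0.71% in control and 0.98%, 2.31% and 1.68% in lysine libraries. These groups did not overlap either. The gene ranked 4 moved the other way, from 10.4%, 10.5% and 9.15% in control to 3.97%, 4.93% and 6.58% in lysine libraries, again with no overlap.

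Most of the other abundant genes took smaller shares with lysine. The third and sixth were lower in all 3 cows without overlap between the groups, at 11.4 ± 1.95% against 8.27 ± 0.82% and at 3.73 ± 0.504% against 2.82 ± 0.236% (control against lysine, SD, n = 3 each). The fifth, seventh and ninth were lower in all 3 cows with overlapping groups. Over all 11851 tested genes 1300 (11%) were without overlap, counted after the normalisation used below and not for shares. The most abundant gene was near level, at 21.2 ± 2.77% in control and 19.2 ± 5.28% in lysine libraries, and was higher with lysine in cow 4381 alone. The tenth was higher in 2 of 3 cows. These directions belong to the shares: after the TMM scaling used below, the genes ranked 3, 5, 6, 7 and 9 were higher with lysine in cow 4381, by 0.04, 0.59, 0.09, 0.41 and 0.28 on the log2 scale, and the groups of ranks 3, 4 and 6 overlapped.

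**Figure D1:**
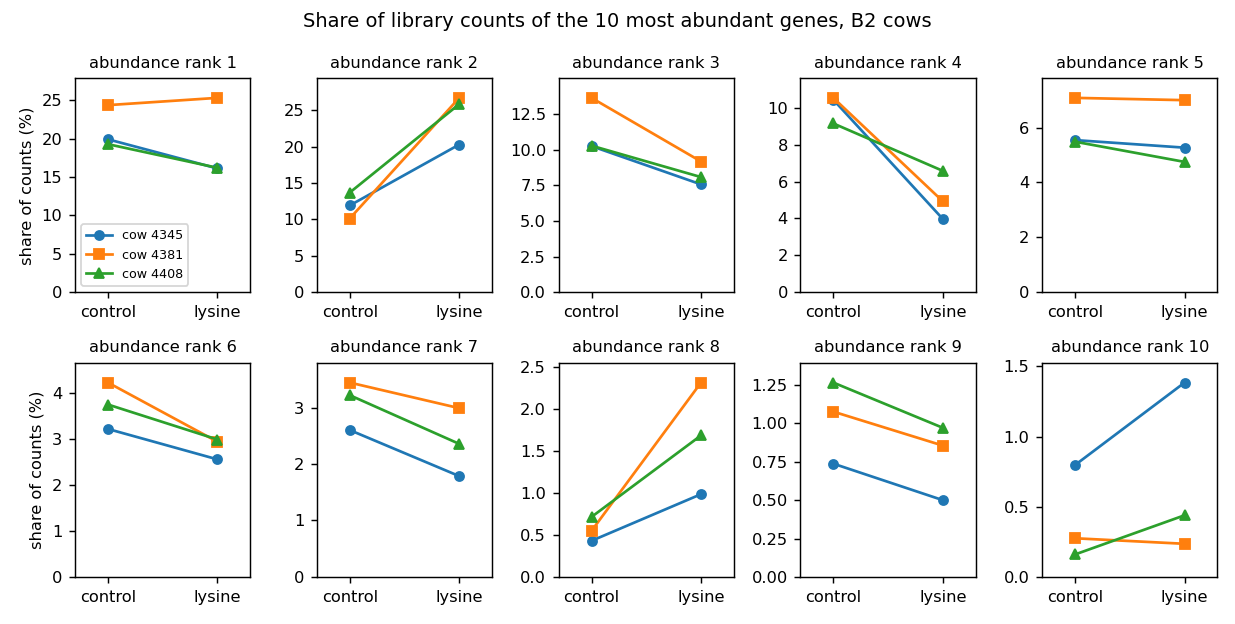
Share of all counts in a library (%, axes from 0) for each of the 10 most abundant genes, ranked by mean normalised CPM over the 6 B2 libraries; each line joins the control and the lysine library of 1 cow. The lines of ranks 2 and 8 go up in all 3 cows and those of ranks 3, 4, 5, 6, 7 and 9 go down in all 3.

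After normalisation none of these 10 genes passed the test (edgeR, quasi-likelihood, blocked by cow, with Benjamini-Hochberg adjustment over 11851 genes and a threshold of 0.05). The log2 fold change was 1.19 ± 0.33 (SE, 3 cows) for the second gene, 1.66 ± 0.34 for the eighth and -0.82 ± 0.30 for the gene ranked 4, with unadjusted p of 0.0045, 0.00063 and 0.021 by edgeR. Their adjusted p was 0.302, 0.302 and 0.342. The tenth gene had a log2 fold change of 0.84 ± 0.27 (adjusted p = 0.311), and the other 6 lay between -0.28 and 0.07. The scaling mattered here: the TMM factor, which corrects for library composition, was 0.58 in the lysine library of cow 4381 and 0.88 to 1.39 in the other 5 libraries. When libraries were scaled by their totals alone, the genes ranked 2, 4 and 8 passed the edgeR test, at log2 fold changes of 1.03, -0.99 and 1.50 and adjusted p of 0.00067, 0.041 and 0.00067. When log2 of the library total entered the fit, the second and eighth stood at 0.37 and 0.63, and the gene ranked 4 at -1.14. Adjusted p ran from 0.00067 to 0.955 for the second gene, from 0.038 to 0.956 for the gene ranked 4 and from 7.0e-05 to 0.955 for the eighth over 14 alternatives each.

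Across all genes, 1 of 11851 passed the threshold in the B2 cows (0.00844%), and it was lower with lysine; 0 were higher (edgeR, Benjamini-Hochberg). An unadjusted p under 0.05 was reached by 1453 genes, 12.3% of those tested, with 804 higher (6.78%) and 649 lower (5.48%). Of these 1453 genes, 276 were more than 2-fold higher and 187 more than 2-fold lower. With cow 4345 left out, 728 of 11370 tested genes were at an unadjusted p under 0.05 by edgeR. The number was 1287 of 12243 with cow 4381 left out and 1904 of 12404 with cow 4408 left out. Each of these fits leaves 1 residual degree of freedom. Under scaling by library totals alone, the median log2 fold change over all genes moved by -0.16, and 212 of 951 genes at an unadjusted p under 0.05 were higher (22.3%, against 55.3% after TMM), so the balance of directions differs between the scalings.

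**Figure D2:**
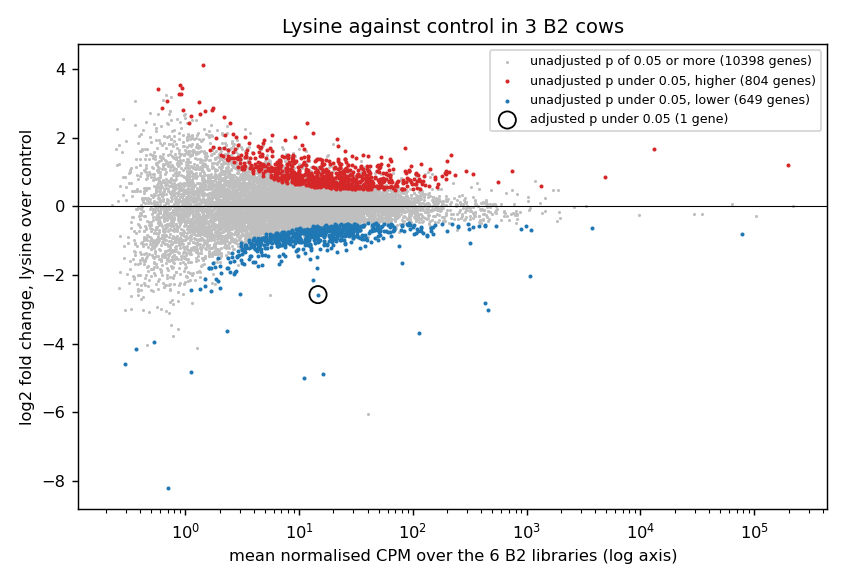
Fitted log2 fold change of lysine over control against mean normalised CPM (log axis) for the 11851 genes tested in the B2 cows; red and blue points are genes at an unadjusted p under 0.05, and the ring marks the 1 gene past the adjusted threshold. The 804 higher and 649 lower genes lie at low and at high levels, and the 3 abundant genes named by share stand apart at the right.

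The gene that fell was ENSBTAG00000003457, a gene of moderate abundance. It measured 13.4, 35.2 and 25.3 normalised CPM in the control libraries of cows 4345, 4381 and 4408, and 1.59, 8.14 and 4.33 in their lysine libraries (CPM, counts scaled to a common total, here after TMM). All lysine libraries stood below all control libraries. These levels rest on 430, 391 and 438 counts in control and 84, 265 and 107 in lysine libraries, so counting error is small beside the difference. The log2 fold change was -2.57 ± 0.29 (SE, 95% interval -3.21 to -1.92), with an adjusted p of 0.039 by edgeR, lower in 3 of 3 cows. The call was kept in 11 of 14 alternatives and lost without cow 4381 (adjusted p = 0.058), without the cow block (0.955) and with all 12 libraries in 1 fit (0.165), and its log2 fold change lay between -3.04 and -2.36 in all 14 (adjusted p 2.8e-16 to 0.955).

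Second by p among the lower genes at 5 CPM or more was ENSBTAG00000031575, the twenty-seventh most abundant of all. Control libraries held 996, 2828 and 1424 CPM in cows 4345, 4381 and 4408, and lysine libraries 427, 442 and 319 CPM. The groups did not overlap, and the lysine libraries lay close together while the controls spread widely. Its log2 fold change of -2.02 ± 0.30 (SE, 3 cows) had an adjusted p of 0.239 by edgeR and did not pass. Over the 14 alternatives the value ran from -2.46 to -1.37, and 7 of them passed the threshold (adjusted p 2.0e-10 to 0.955).

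On the other side, ENSBTAG00000002623 had the smallest p among genes higher with lysine. It stood at 62.4, 25.8 and 16.4 CPM in control and 298, 49.5 and 61.5 CPM in lysine libraries of cows 4345, 4381 and 4408. The control of cow 4345 was above the lysine libraries of both other cows, so the groups overlapped although each cow was higher with lysine. The log2 fold change was 1.71 ± 0.29 (SE, 3 cows, edgeR adjusted p = 0.302). ENSBTAG00000032289, the next by p, measured 14.9, 1.89 and 1.04 CPM in control and 44.1, 6.24 and 10.7 CPM in lysine libraries. Here too the groups overlapped, through the high control of cow 4345. Its log2 fold change was 2.14 ± 0.38 (SE, 3 cows, edgeR adjusted p = 0.302). Over 14 alternatives each, the first passed in 8 (adjusted p 3.2e-09 to 0.955) and the second in 5 (5.3e-09 to 0.955).

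The remaining 8 genes of each direction, chosen in the same way by p, were mostly smaller differences of the same kind. The 8 higher ones had log2 fold changes of 1.17 to 2.02 at mean levels of 9.11 to 218 CPM, and the 8 lower ones -1.65 to -1.21 at 9.75 to 80.5 CPM. None passed the threshold, with an adjusted p of 0.302 for the best of each set. All 20 genes moved the same way in 3 of 3 cows, which their choice by p makes likely in advance. Groups did not overlap for 8 of the 10 lower genes and for 2 of the 10 higher genes. Over all tested genes 1300 were without overlap (11%), 776 with lysine lower (6.55%) and 524 with lysine higher (4.42%).

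**Figure D3:**
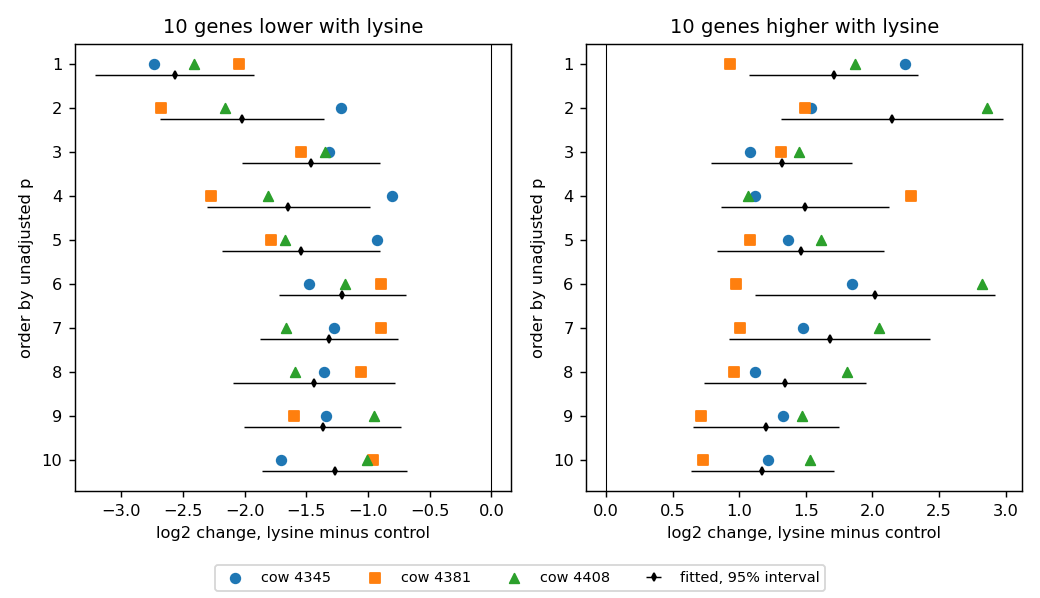
Log2 change from the control to the lysine library of each B2 cow (coloured symbols, normalised CPM plus 0.5) for the 10 lower and 10 higher genes with the smallest p at 5 CPM or more, in order of p from the top; diamonds and bars are the fitted log2 fold change and its 95% interval. Cow 4381 shows the smallest change for 8 of the 10 higher and 5 of the 10 lower genes, and cow 4408 the largest for 8 and 2 of them.

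The 3 cows differed in how far their lysine library lay from their control. Over the 7442 genes that averaged 5 CPM or more, the SD of the log2 change was 0.65 in cow 4345, 0.53 in cow 4381 and 0.79 in cow 4408. In cow 4408, 831 genes were more than 2-fold higher and 246 more than 2-fold lower. Cow 4345 was more even, with 387 higher and 492 lower, and cow 4381 had 166 higher and 177 lower. Across these genes the changes of cows 4345 and 4381, whose P code was lower by 1 with lysine in both, correlated at r = 0.41. Cows 4345 and 4408 correlated at 0.36, and cows 4381 and 4408 at 0.12. These are descriptions across genes that share 1 normalisation, and genes are not independent replicates. Cow 4408 alone had the higher P code with lysine. It alone also had more genes with a count with lysine, 13223 against 12247 in its control, the lowest number among the B2 libraries. The parts of this cow, of the P order and of the genes detected cannot be told apart.

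Many genes had 1 direction in the whole group. The change had the same sign in each of the 3 cows for 4549 genes (38.4%), 2303 higher (19.4%) and 2246 lower (19%). Among the 1453 genes at an unadjusted p under 0.05, 1404 had the same sign in all 3 cows, which their choice by p makes likely in advance. Groups were without overlap for 1300 of all 11851 tested genes (11%) and for 509 of the 1453 genes at that p. That p was reached less often below 5 CPM than in each of the higher classes, as a description: 4.58% of the 4409 genes under 5 CPM reached it, 16.6% of the 6439 genes from 5 to 50 CPM, 17.7% of the 938 genes from 50 to 500 CPM, and 13 of the 65 genes above 500 CPM (20%). Among genes of at least 5 CPM, 95% intervals reached a median of 0.62 to either side of the log2 fold change (1.53-fold), and 54.0% of these intervals excluded every change of 2-fold or more, and 96.2% every change of 4-fold or more.

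The number of genes called differed widely between tools. Against 1 gene with edgeR's quasi-likelihood test, DESeq2 called 172 (116 higher, 56 lower) and limma voom 531 (324 higher, 207 lower), with cow as a block in both. Of the 172, 163 were among the 531, and 169 were at an unadjusted p under 0.05 in the edgeR fit. DESeq2 gave no adjusted p for 6204 genes, which stay uncounted. With 3 cows a gene on its own has 2 residual degrees of freedom in each of these fits. Each tool adds to them by sharing information on spread across genes, in its own way, so p and intervals rest on more than these 2. Why the counts differ between tools was not tested.

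Whether the lysine effect in the B2 cows differed from that in the 3 B1 cows (4319, 4383 and 4394) was tested in 1 fit of all 12 libraries. Of 12312 genes, 0 passed the adjusted threshold (0%, edgeR test of the interaction, lowest adjusted p 0.664), and 839 had an unadjusted p under 0.05 (6.81%), 507 with the larger value in B2 (4.12%) and 332 with the smaller (2.7%). DESeq2 called 43 genes for the same difference and limma voom 0. In this fit 724 genes were at an unadjusted p under 0.05 for lysine in B2 (5.88%) and 461 in B1 (3.74%), with 0 past the adjusted threshold in either. The count of 839 was 372 when cow 4345 was left out, 546 for cow 4408 and 1328 for cow 4319. Without cow 4394, 2 genes were called.

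The genes leading the B2 comparison mostly had log2 fold changes closer to 0 in the B1 cows. Their choice by p in the B2 cows favours this in advance, and so bears on their differences from B1. ENSBTAG00000003457 had a log2 fold change of -2.57 in B2 and -0.16 ± 0.36 (SE, 3 cows) in B1 in the 12-library fit, a difference of -2.41 (95% interval -3.52 to -1.30, unadjusted p = 0.00045, adjusted p = 0.664 by edgeR). In the B1 cows it measured 16.2, 10.7 and 10.0 CPM in control and 14.0, 5.97 and 14.4 CPM in lysine libraries of cows 4319, 4383 and 4394. ENSBTAG00000031575 stood at 0.19 ± 0.84 in B1, with 916, 740 and 2256 CPM in control and 2479, 2152 and 219 CPM in lysine libraries, so these cows did not move together. ENSBTAG00000002623 was at -0.51 ± 0.39 and ENSBTAG00000032289 at 0.05 ± 0.76 in B1. Of the 10 genes higher in B2, 4 had the same sign in B1, and of the 10 lower ones 6 did. The second and eighth most abundant genes were at 0.57 ± 0.62 and 0.24 ± 0.63 in B1, and the gene ranked 4 at 0.43 ± 0.41 (SE, 3 cows each), and none of these differences between B codes passed the threshold.

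**Figure D4:**
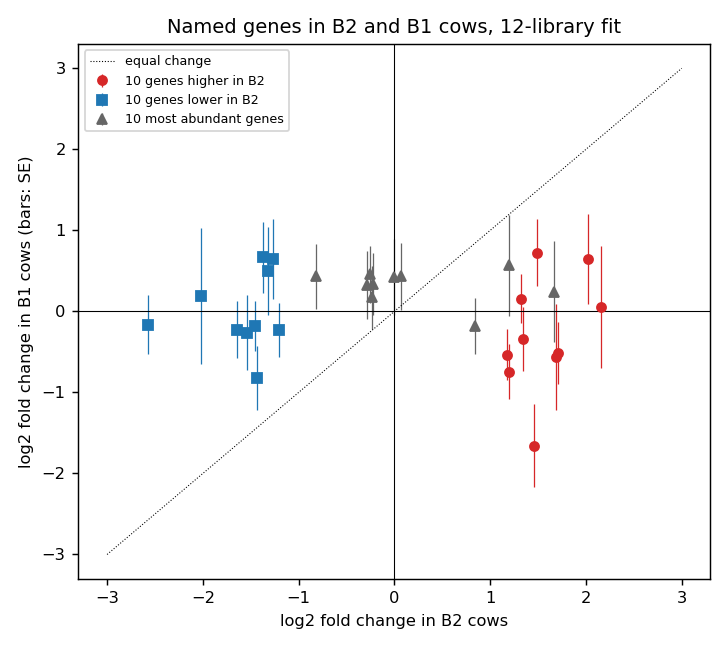
Log2 fold change with lysine in the B2 cows (x axis) and in the B1 cows (y axis, bars are the SE) from 1 fit of 12 libraries, for the 10 genes higher in B2, the 10 lower in B2 and the 10 most abundant; the dotted line marks equal change. The higher and lower genes were chosen by p in the B2 cows and so lie away from 0 on the x axis, while on the y axis they range from -1.66 to 0.72; the abundant genes were chosen by level, and 6 of them lie between -0.28 and 0.07 on the x axis.

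The genes with the smallest p for the difference itself mostly had opposite signs in B2 and B1, which their choice by that p favours in advance. The 5 with the larger value in B2 had log2 fold changes of 0.79 to 1.45 in B2 and -1.60 to -0.78 in B1, and all 5 had opposite signs. The 5 with the smaller value in B2 had -2.57 to -0.94 in B2 and -0.16 to 1.60 in B1, with opposite signs for 4. Their unadjusted p lay between 0.00020 and 0.0017 by edgeR, and the adjusted p of each was 0.664.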

How the data were processed

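RNA of the milk fat layer was sequenced, and the authors deposited 1 table of raw read counts per Ensembl gene, 1 column per library; for the aligner, counter, strand setting, build and annotation: not given in the sources used here. Groups, cows and codes come from the column names, which equal the sample descriptions. Counts of the 6 B2 libraries were filtered with filterByExpr (minimum count 10, about 0.41 CPM, in 3 libraries), which kept over 99.9% of the counts of each library, and scaled by TMM within these 6 columns. edgeR 4.0.16 (R 4.3.3) fitted robust quasi-likelihood models with cow and lysine, tested two-sided at a Benjamini-Hochberg adjusted p of 0.05. SEs were derived as the size of the fitted log2 change divided by the root of its F statistic. The difference between B codes was fitted likewise on all 12 libraries. Alternatives used DESeq2 1.42.0 and limma 3.58.1.

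The libraries of a cow come from 1 animal, so cow is a block. Deviations from the group means correlated at 0.80, 0.54 and 0.38 within cows 4345, 4381 and 4408 (7442 genes), and at -0.69 to 0.46 between cows. The control of cow 4408 correlated more with the lysine library of cow 4381 (0.46) than with its own. Deviations within a group cancel for each gene, so a positive value within a cow forces at least 1 negative value between cows. The contrast is thus partly fixed in advance and is no test of the block. Library measures were compared by exact sign-flip permutation over cows. No source names molecular identifiers, so reads may not be separate molecules, and depth speaks to counting error alone.

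Named genes follow a rule: in each direction the 10 genes lowest in p that averaged 5 CPM or more, the 10 most abundant, and the 5 per direction lowest in p for the difference between B codes. The comparison and the lists were chosen with earlier results of these data known.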

Additional observations from a re-analysis of the deposited data

How the results depend on the processing

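In the B2 cows, 1 gene was called. The count was 1 with DESeq2 size factors and with genes at 5 CPM or more only, and 4 under scaling by library totals alone. It was 174 with all genes kept whatever their counts, 172 with DESeq2 and 531 with limma voom. With log2 library total in the fit it was 11, and with the P code as a linear covariate 1034. Either covariate leaves 1 residual degree of freedom for 6 libraries. The count was 3 with counts thinned to the smallest total (added after the data were seen) and 0 with all 12 libraries in 1 fit. With no replicate block it was 0 as well, so the gene was not called without the block. Leaving out 1 cow gave 1 to 255 genes (11 without 4345, 1 without 4381, 255 without 4408). Each of these B2 fits likewise leaves 1 residual degree of freedom, and the part of the cow left out was not tested. The 1 gene without cow 4381 was ENSBTAG00000002623, higher with lysine (edgeR adjusted p = 0.042), and not the gene of the main fit. For the difference between B codes the count of 0 became 30 without a filter and 43 with DESeq2, was 0 with no replicate block, and was 0 to 2 with a cow left out. Leaving out a cow moved the difference in total counts (lysine minus control) over 10.1 to 28.4 M, genes detected over -1248 to -13 and the share of the 10 most abundant genes over -1.50 to 4.68 percentage points, negative without cow 4381. The 10 higher and 10 lower genes and the 10 for the difference kept their direction in all alternatives run. The most abundant gene, at -0.0015, turned to 0.00026 with voom, 0.21 without the block and 0.031 with the P code, and lay at -0.32 to 0.18 with a cow left out (0.18 without cow 4345, 0.075 without cow 4408). The fifth, at 0.07, turned to -0.0995 with library totals, -0.47 with the depth covariate and -0.18 without cow 4381 (-0.18 to 0.16 with a cow left out). The cause of these shifts was not tested. Gene lists could not be read, as no ID had a name. Depth differed with lysine in all 3 cows and 3 cows limit every test.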

Other observations

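The reading of the third cow, of B1 signs and of control levels was chosen after the data were seen, and each is a description. Genes called from 2 B2 cows were read in the cow left out, which shares no library with them but was normalised with them. Each fit of 2 cows leaves 1 residual degree of freedom. The 255 genes called by edgeR from cows 4345 and 4381 moved the same way in cow 4408 for 208 (81.6%), with a median change of 0.47 on the log2 scale in that direction. Over all 11820 genes read in this way the share was 58.2% and the median 0.14. Cow 4408 had the other order of P codes. The 11 genes called without cow 4345 all moved the same way in it (66.1% over all genes), as did the 1 gene called without cow 4381 (59.8%).

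In the B1 cows the sign was more often the opposite one. Of the 1453 genes at an unadjusted p under 0.05 in B2, 490 (33.7%) had the same sign in B1, against 44.3% of 11816 genes tested in both. Of the 80 at an unadjusted p under 0.05 in both, 11 had the same sign. These counts take B2 values from the fit of 6 libraries and B1 values from that of 12, with different normalisation and filter. In the fit of 12, edgeR gave 724 genes at that p in B2 and 461 in B1. The log2 fold changes of B2 and B1 correlated at r = -0.24 across the 7359 genes at 5 CPM or more in the 12-library fit. In that fit the cows are different but the normalisation is shared. B1 libraries held 31.1, 7.40 and 13.3 M counts in control and 5.45, 28.7 and 17.9 M with lysine (cows 4319, 4383 and 4394). The mean difference in depth was 0.07 M in B1 and 21.4 M in B2, so the parts of depth and B code cannot be told apart.

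Genes higher with lysine tended to stand high in cow 4345 already in the control. Of the 804 such genes at an unadjusted p under 0.05, cow 4345 had the highest of the 3 control levels for 671 (83.5%), against 42.0% of all 11851 tested genes. For the 649 lower genes it was 65 (10.0%). Their highest control was in cow 4408 for 347 (53.5%), against 35.8% of all tested genes, and in cow 4381 for 237 (36.5%), against 22.25%. Both sets were chosen by a p that uses these same control libraries.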
